A study of Mus musculus with 108 samples.

Results

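The ITS2, 5.8S and 28S segments of the mouse ribosomal RNA precursor were followed in single oocytes that lacked Exosc10 and in control oocytes. They were taken by position as 3 of the 7 segments counted along the precursor, and all 3 had counts in all 22 oocytes with a ribosomal RNA file. The segments ran from position 6878 to 7034 (5.8S), 7035 to 8122 (ITS2) and 8123 to 12852 (28S), which are lengths of 157, 1088 and 4730 nucleotides. 18S, at positions 4008 to 5877, served as the small-subunit comparator.

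Each oocyte came from a female with an oocyte-specific Exosc10 knockout (cKO) or from a control female, at the germinal vesicle stage (GV, arrested in prophase I) or at metaphase II (MII, the mature egg). The groups were 7 GV cKO oocytes (3 of female V1126 and 4 of V1131), 8 GV control oocytes (4 each of V1132 and V1133), 4 MII cKO eggs (2 each of V1166 and V1167) and 3 MII control eggs, all of female V1145. Genotype and stage did not vary within a female, oocytes of 1 female are not independent, and the p-values below measure the spread between oocytes. The labels name neither the promoter that drove the deletion nor the control genotype. They state that MII eggs were taken from oviducts and GV oocytes were kept in M2 medium, so stage and collection cannot be told apart. Each ribosomal RNA file has a RiboMinus file (ribosomal RNA removed, all genes counted) with the same female and oocyte number.

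In the growing oocyte, RNA polymerase I makes 1 long precursor that holds 18S, 5.8S and 28S rRNA between external (ETS) and internal (ITS) transcribed spacers. ITS2 separates 5.8S from 28S, the rRNAs of the large ribosomal subunit. It is cut by the LAS1L-NOL9 complex, and the nuclear exosome, with its 3′ exonuclease EXOSC10 and the helicase MTREX, trims the remaining extension at the 3′ end of 5.8S. Growing mouse oocytes build up ribosomes for the embryo, and synthesis of rRNA ceases toward the end of growth.

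The ribosomal RNA totals ran from 482609 to 1473517 counts per oocyte and were lowest in the 3 MII controls (482609 to 604349). A further 4.88% to 7.97% of the reads fell outside the 7 segments in 21 oocytes, and 11.3% did so in MII cKO egg V1167_2. In the RiboMinus files Exosc10 stood at 0.781 to 8.31 CPM (counts per 1000000 of the library, TMM-scaled within each stage) in GV cKO oocytes against 96.1 to 163.9 CPM in controls, and at 0.452 to 3.64 CPM against 81.6 to 103 CPM at MII, with no overlap. Marker levels were TMM-scaled over all 22 libraries together. The summed level of 10 oocyte markers, such as Zp1 and Bmp15, was 7095 to 14550 CPM. The sum of 10 cumulus and granulosa cell markers was 11.1 to 60.6 CPM, with 13.4 to 60.6 (median 15.7) in GV cKO, 23.9 to 52.7 (38.7) in GV controls, 11.1 to 29.5 (17.2) in MII cKO and 20.9 to 32.2 (21.9) in MII controls. Cyp19a1 gave much of this sum, with 5.64 to 20 CPM in GV cKO, 18.7 to 39.1 in GV controls, 6.69 to 16.3 in MII cKO and 13.4 to 28.6 in MII controls. In the MII controls Amh, Foxl2, Ptx3, Tnfaip6 and Hsd17b1 were at 0 in every egg, and the other members besides Cyp19a1 reached at most 5.78 CPM. In the other groups Fshr reached 14.07 CPM in an MII cKO egg and Inhba 14.65 CPM in a GV control. Amh reached 27.3 CPM and Inha 14.05 CPM in GV cKO. Of the oocyte markers, edgeR called 7 of 10 at GV (5 higher and 2 lower in cKO, median 0.58, 70% against 37.6% of all genes) and 3 of 10 at MII (1 higher and 2 lower, median -0.34, 30% against 23.7%). Of the cumulus and granulosa list, 1 of 5 tested genes was called at GV (Cyp19a1, lower in cKO, 20%) and 0 of 4 at MII. The part of these markers in the results was not tested.

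ITS2 was lower in MII cKO eggs than in each of the other 18 oocytes with a ribosomal RNA file. The 4 MII cKO eggs had 271, 182, 176 and 277 ITS2 counts, in libraries of 749563 to 1344559 ribosomal RNA counts. The 3 MII controls had 551, 457 and 360 ITS2 counts although their libraries were smaller. As a share of ribosomal RNA counts, ITS2 was 0.0346%, 0.0216%, 0.0235% and 0.0206% in the cKO eggs and 0.0912%, 0.0769% and 0.0746% in the controls. The highest knockout egg and the lowest control were further apart than their counting error, with 95% Wilson intervals of 0.0307% to 0.039% and 0.0673% to 0.0827%. These intervals cover counting error only, and reads amplified without molecular identifiers are not independent molecules.

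The means were 0.0251% ± 0.0065 (SD, n = 4) in MII cKO and 0.0809% ± 0.009 (SD, n = 3) in MII controls, a log2 difference of -1.72 (SE 0.19), or 3.28-fold lower. An exact two-sided permutation test over eggs, with the smaller tail doubled, gave p = 0.0571, the smallest value this test can give for 4 against 3 eggs, and 0.143 after Benjamini-Hochberg adjustment over the 45 tests made (9 ratios and shares, 5 contrasts). Of the 7 segments, 6 had shares that did not overlap between the MII groups (85.7%), so separation by itself was common there. Of these 6, ITS2 and 18S were lower in the cKO eggs, with 18S at 29.9% ± 6.89 (SD, n = 4) against 37.6% ± 2 (SD, n = 3), and the other 4 were higher. At GV no segment separated the genotypes (0 of 7, 0.0%). Without oocyte V1126_3, 2 of 7 did, the 5′ETS and ITS1, both higher in cKO.

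**Figure D1:**
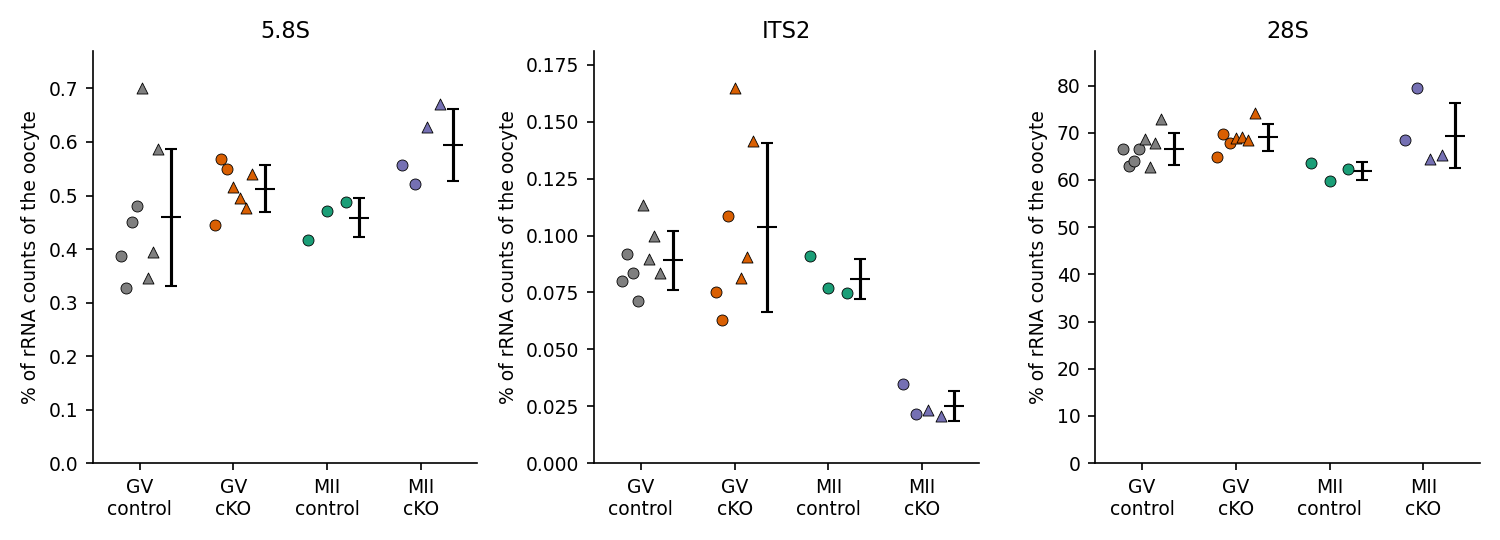
Share of 5.8S, ITS2 and 28S in the ribosomal RNA counts of each oocyte (percent, linear axes from 0) for GV control, GV cKO, MII control and MII cKO. Points are oocytes, circles and triangles are different females within a group, and bars give mean and SD; the 4 MII cKO eggs hold 0.0206% to 0.0346% ITS2, below all other oocytes.

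The same eggs stood apart when ITS2 was read against its neighbours. ITS2 counts per 1000 counts of 5.8S were 62.2, 41.4, 37.4 and 30.7 in MII cKO eggs and 218.2, 163.3 and 153.1 in MII controls. In GV cKO oocytes the lowest, median and highest values were 110.5, 190.1 and 319.5, and in GV controls 141.8, 196.3 and 280.8. The GV groups overlapped nearly throughout, and the MII cKO eggs lay below all 18 other oocytes.

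At MII the ITS2/5.8S ratio was 42.9 ± 13.6 per 1000 (SD, n = 4) in cKO against 178.2 ± 35 (SD, n = 3) in controls, a log2 difference of -2.08 (SE 0.27) and 4.24-fold lower (exact permutation p = 0.0571, adjusted 0.143). Leaving out 1 egg at a time kept this difference between -2.28 and -1.93. Without egg V1167_2, the one with most reads outside the segments, it was -1.94. At GV the ratio was 202 ± 68.8 per 1000 (SD, n = 7) against 204.5 ± 54 (SD, n = 8), a log2 difference of -0.05 (SE 0.23, exact permutation p = 0.843).

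Stage was then compared within each genotype. In cKO oocytes the ITS2/5.8S ratio was 4.63-fold lower at MII than at GV, a log2 difference of -2.21 (SE 0.28), and the exact permutation p of 0.00606 was the smallest the doubled tail can give for 4 against 7 oocytes. After adjustment it was 0.0682 and missed the threshold of 0.05, which it passed when p was counted by absolute size. In controls the stage difference was -0.17 (SE 0.21, exact permutation p = 0.497). The difference between these stage differences was -2.04 (SE 0.35), with p = 0.0331 when genotype labels were permuted within stages in an exact test and 0.143 after adjustment. Of the 7 segments, 1 (ITS2) had shares that did not overlap between GV and MII in cKO oocytes (14.3%), and in controls no segment did (0.0%). Without V1126_3, 3 of 7 did in cKO, the 5′ETS, ITS1 and ITS2, all lower at MII.

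ITS2 against 28S gave values close to those against 5.8S. Per 1000 counts of 28S, ITS2 had 0.505, 0.271, 0.365 and 0.316 counts in the MII cKO eggs and 1.43, 1.29 and 1.2 in the controls. Again every knockout egg was below every control. The log2 difference at MII was -1.88 (SE 0.21), that between stages in cKO was -2 (SE 0.26, exact permutation p = 0.00606, adjusted 0.0682), and that at GV was 0.1 (SE 0.2, exact permutation p = 0.605).

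**Figure D2:**
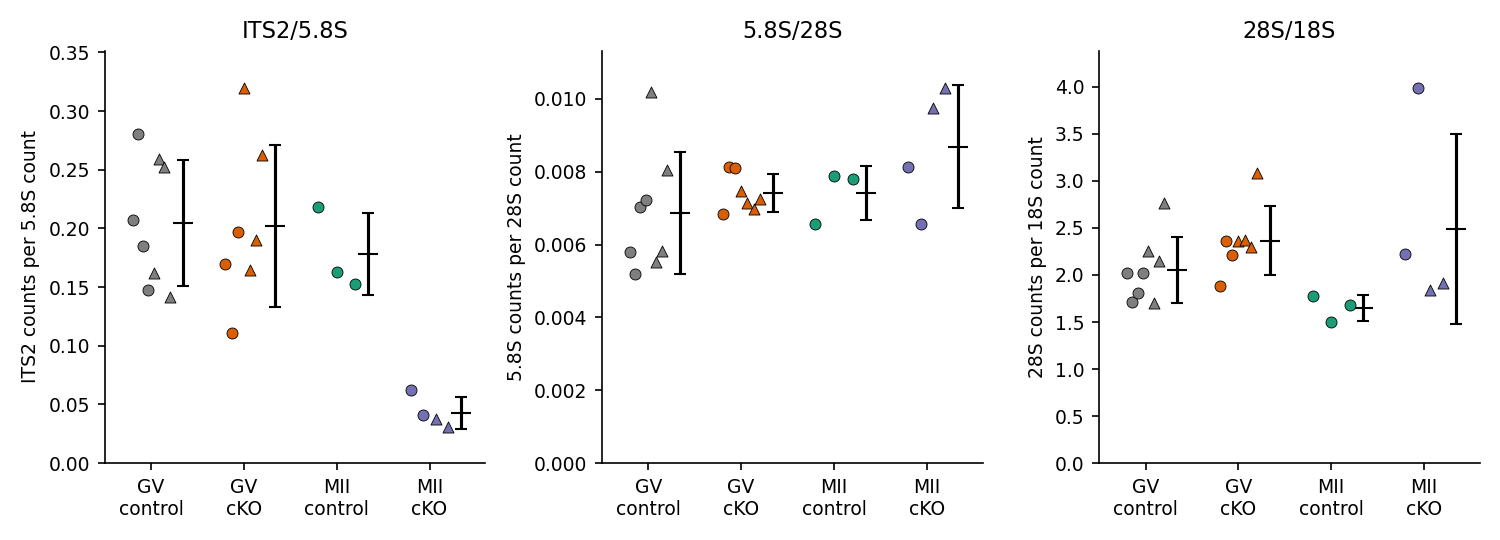
The ratios ITS2/5.8S, 5.8S/28S and 28S/18S in each oocyte (counts per count, linear axes from 0), with the same groups, symbols and mean ± SD bars as for the shares. MII cKO eggs lie apart in ITS2/5.8S, at 0.0307 to 0.0622, while all groups overlap in 5.8S/28S and 1 MII cKO egg is high in 28S/18S at 3.99.

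By female, the geometric mean of ITS2 per 1000 counts of 5.8S was 50.8 in V1166 and 34 in V1167, the females with MII cKO eggs. It was 176.2 in V1145 (MII control), 199.9 and 196.9 in V1132 and V1133 (GV control), and 154.7 and 226.4 in V1126 and V1131 (GV cKO). Both MII cKO females were thus below each of the other 5. With females as replicates the difference at MII was again -2.08 on the log2 scale, but for 2 females against 1 the exact permutation p with doubled tail cannot go below 0.667, the value found, and by absolute size it was 0.333.

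Of the 45 exact permutation tests, 0 passed an adjusted p of 0.05 and 9 had an unadjusted p under 0.05. An exact two-sided permutation p counted by the absolute size of the difference, an alternative chosen after seeing the data, passed in 4 tests, each with adjusted p = 0.0341. These were ITS2/5.8S, ITS2/28S and the ITS2 share between stages in cKO, and ITS2/ITS1 between genotypes at GV. At MII the ITS2 share and ITS2/5.8S then had an exact permutation p of 0.0286 (adjusted 0.107). For other measures the exact permutation p by absolute size was larger than with the doubled tail. It was 0.114 for 28S/18S and 0.0857 for the 28S share at MII, and 0.0667 for 28S/18S between control stages. Count models on the 7 segments, run as alternatives, called the ITS2 share at MII: edgeR's quasi-likelihood test gave -1.69 (Benjamini-Hochberg adjusted p = 5.45e-05) and DESeq2's Wald test gave -1.7 (adjusted p = 5.66e-14). Both models also called the 5′ETS (edgeR 3.42, adjusted p = 5.005e-06) and ITS1 (edgeR 4.16, adjusted p = 5.005e-06) at MII, higher in cKO. Between stages in cKO both models called ITS2 (edgeR -2.05, adjusted p = 0.000359). There the 5′ETS (edgeR -3.45, adjusted p = 0.0264) and ITS1 (-2.57, adjusted p = 0.0264) were called lower as well. The difference of stage differences was called for ITS2 (edgeR -1.91, adjusted p = 0.000185) and not for the 5′ETS (-1.85, adjusted p = 0.241) or ITS1 (0.32, adjusted p = 0.897). At GV edgeR called the 5′ETS (5.26, adjusted p = 0.00035) and ITS1 (3.84, adjusted p = 0.00383) higher in cKO, and not ITS2 (0.22, adjusted p = 0.443). With 7 segments edgeR had few features from which to estimate the spread. DESeq2 was run here with each segment's own estimate of the spread, with nothing shared between segments. Both models treat eggs of 1 female as independent.

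**Figure D3:**
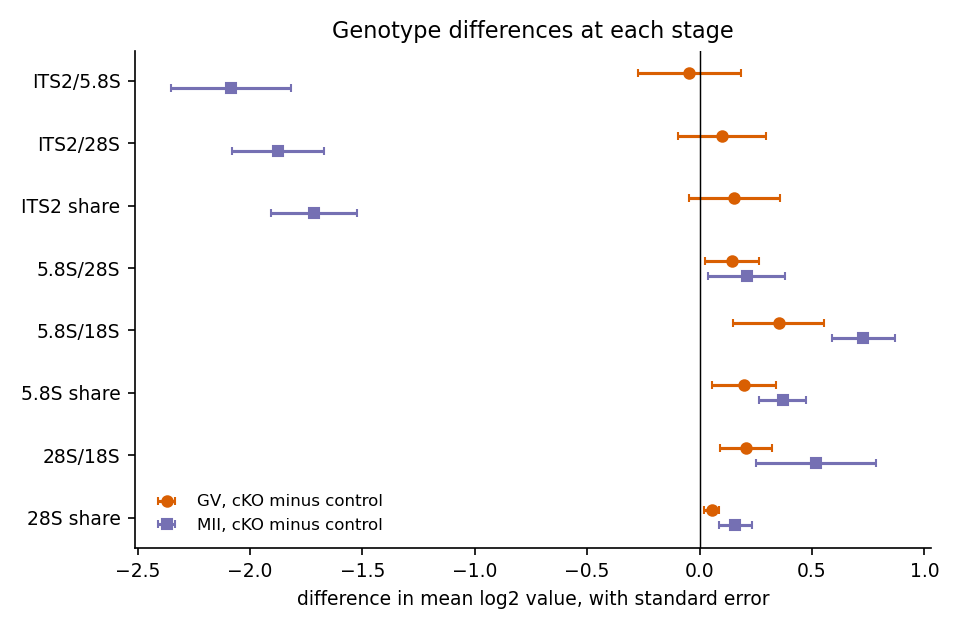
Log2 difference, cKO minus control, with its standard error (horizontal axis), for ITS2, 5.8S and 28S ratios and shares at GV (circles) and at MII (squares). The 3 ITS2 measures lie between -1.72 and -2.08 at MII and between -0.05 and 0.15 at GV, and the other 5 measures are above 0 at both stages.

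ITS2 was compared with the spacers that are removed before it. Densities are given as CPM of the ribosomal RNA total per kb of segment. In controls ITS2 was far denser than ITS1, the spacer between 18S and 5.8S: 653.1 to 1043 against 3.39 to 163.4 in the 8 GV oocytes, and 685.6 to 838 against 6.22 to 6.73 in the 3 MII eggs. The MII control value for ITS1 rests on 3 to 4 counts per egg. ITS2 was 83% ± 13.6 (SD, n = 8) of all spacer counts in GV controls and 92.2% ± 2.47 (SD, n = 3) in MII controls.

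In GV cKO oocytes ITS1 stood at 314.9 CPM per kb or more in 6 oocytes (group median 845.2) and at 31.6 in oocyte V1126_3. The same 6 oocytes had ITS2 at 691.9 to 1514, and V1126_3 had 576.5, the lowest ITS2 density among the GV oocytes. Counts of ITS2 per count of ITS1 were 1.07 at the lowest, 1.25 at the median and 19.8 at the highest in GV cKO, and 5.63, 57.3 and 209.4 in GV controls. The groups overlapped through V1126_3 and the 2 controls with most ITS1. The log2 difference was -4.26 (SE 0.85, exact permutation p = 0.00124, adjusted 0.0559), which missed the threshold. The adjusted exact permutation p passed it with 5 added to each count (0.042), with mean ranks (0.0448), by absolute size and without V1126_3, left out after its values were seen (-4.8, 0.03). It was 0.157 without V1131 (-3.35), 0.136 without V1132 (-3.8), 0.0745 without V1126 and 0.0909 without V1133. With female means the difference was -4.15 and the exact permutation p was 0.333, the smallest the doubled tail can give for 2 against 2 females.

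In MII cKO eggs ITS1 was 76 to 157.6 CPM per kb, above the MII controls. These values were within the range of GV controls but above the GV control median of 17.75. ITS2 was 189.4 to 317.9 in the MII cKO eggs, under the lowest GV control (653.1). GV controls V1132_2 and V1133_1, which had ITS1 densities of 163.4 and 144.8, had ITS2 at 844.7 and 1043. The ITS2/ITS1 count ratio was 1.37 to 3.09 in MII cKO and 114.2 to 137.8 in MII controls. ITS2 was 25.2% ± 3.68 (SD, n = 4) of spacer counts in MII cKO and 24.2% ± 26.5 (SD, n = 7) in GV cKO, where the median was 12.5% and V1126_3 had 79.6%. The spacers together made up 0.861% ± 0.529 (SD, n = 7) of ribosomal RNA counts in GV cKO, from 0.0788% to 1.34%, and 0.112% ± 0.0361 (SD, n = 8) in GV controls, from 0.0741% to 0.181%. At MII they made up 0.1% ± 0.0233 (SD, n = 4) in cKO and 0.0879% ± 0.0106 (SD, n = 3) in controls. These totals overlapped at both stages, at GV through V1126_3 alone: the next lowest GV cKO oocyte had 0.203%, above the highest control.

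**Figure D4:**
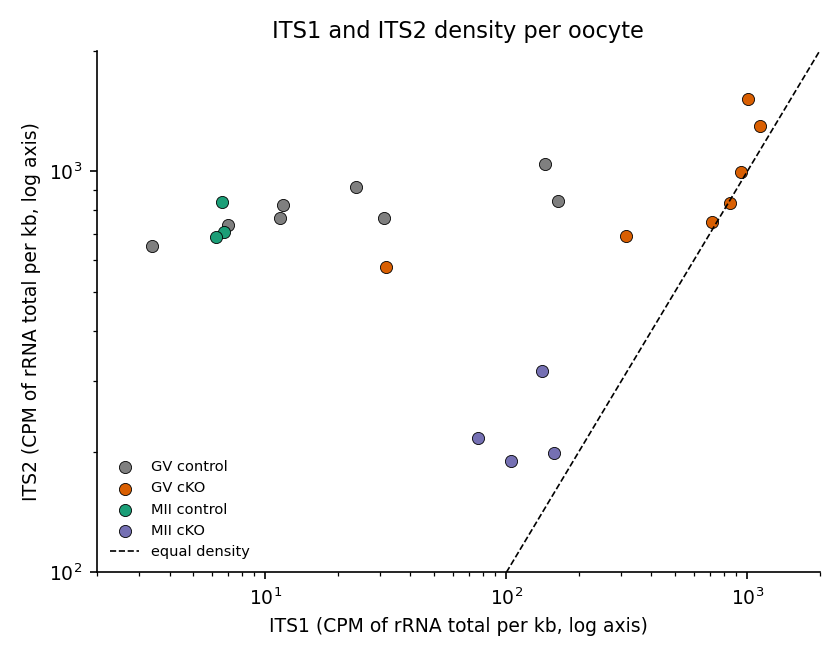
ITS2 against ITS1 density in each oocyte (CPM of the ribosomal RNA total per kb of segment, both axes log), coloured by group, with a dashed line of equal density. ITS2 stays between 653.1 and 1043 in GV controls while ITS1 runs from 3.39 to 163.4. Near the line lie 6 of 7 GV cKO oocytes, at high density, and the MII cKO eggs, at ITS2 densities of 189.4 to 317.9.

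Within groups (each value centred on its group mean, 22 oocytes), log2 ITS2 share had Pearson r of 0.631 with ITS1, 0.678 with the 5′ETS, 0.065 with 5.8S and 0.152 with 28S. These are descriptions over oocytes that share females and a common denominator. The spread of ITS2/5.8S between oocytes was 9.34, 7.23, 4.28 and 3.66 times its counting error in GV cKO, GV control, MII cKO and MII control.

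5.8S, the small rRNA that pairs with 28S in the large subunit, showed smaller differences. Its share was 0.444% at the lowest, 0.515% at the median and 0.5676% at the highest in GV cKO, and 0.327%, 0.423% and 0.7% in GV controls. These groups overlapped fully. In MII cKO eggs it was 0.556%, 0.521%, 0.628% and 0.671%, and in MII controls 0.418%, 0.471% and 0.487%, with no overlap. The MII means were 0.594% ± 0.0679 (SD, n = 4) and 0.459% ± 0.0363 (SD, n = 3), a log2 difference of 0.37 (SE 0.11, exact permutation p = 0.0571, adjusted 0.143). DESeq2 called this share at MII (0.37, adjusted p = 0.00286) and edgeR did not (0.37, adjusted p = 0.132).

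The ratio of the large-subunit pair, 5.8S to 28S, did not separate any groups. Per 1000 counts of 28S, 5.8S had 7.42 ± 0.52 counts in GV cKO (SD, n = 7), 6.86 ± 1.67 in GV controls (SD, n = 8), 8.68 ± 1.69 in MII cKO (SD, n = 4) and 7.42 ± 0.74 in MII controls (SD, n = 3). The log2 difference was 0.14 (SE 0.12, exact permutation p = 0.293) at GV and 0.21 (SE 0.17, exact permutation p = 0.286) at MII. The female V1167 carried the MII value: its eggs had 9.76 and 10.3 against 8.12 and 6.56 in V1166, and without V1167 the difference was -0.0189. Per nucleotide of segment, 5.8S had 0.224 ± 0.0156 (SD, n = 7) of the 28S density in GV cKO and 0.157 to 0.31 over all oocytes, although 1 of each is made per precursor.

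28S made up most of the counts, at 69% ± 2.8 (SD, n = 7) in GV cKO, 66.5% ± 3.42 (SD, n = 8) in GV controls, 69.4% ± 6.93 (SD, n = 4) in MII cKO and 61.9% ± 2.01 (SD, n = 3) in MII controls. As 28S and 18S are nearly all of the total, their shares mirror each other (group-centred r of -0.989), and the 28S/18S ratio carries the same information. That ratio was 2.22, 3.99, 1.84 and 1.92 in MII cKO eggs and 1.78, 1.5 and 1.68 in MII controls. The groups did not overlap, but the nearest values were 1.84 and 1.78, and egg V1166_2 alone reached 3.99.

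The MII means of 28S/18S were 2.49 ± 1.01 (SD, n = 4) and 1.65 ± 0.14 (SD, n = 3), with a log2 difference of 0.52 (SE 0.27, exact permutation p = 0.0571, adjusted 0.143). Without egg V1166_2 the difference was 0.27. At GV the ratio was 1.88, 2.36 and 3.09 (lowest, median, highest) in cKO and 1.7, 2.02 and 2.77 in controls, a log2 difference of 0.21 (SE 0.11, exact permutation p = 0.0995). That difference was 0.0758 without V1131, 0.1 without V1132 and 0.305 without V1126. In controls the 28S/18S ratio was lower at MII than at GV by 0.3 on the log2 scale (SE 0.11, exact permutation p = 0.0485, adjusted 0.143). This stage difference depended on the samples: it was -0.41 without V1132 (exact permutation p = 0.114) and -0.35 to -0.23 without 1 MII control egg. Equal coverage of both rRNAs would give a ratio of 2.53 from their lengths, and 3 of the 22 oocytes were above it and 19 below.

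The genes of the pathway were read in the RiboMinus files of the same oocytes with edgeR's quasi-likelihood test, called at a Benjamini-Hochberg adjusted p under 0.05 over all genes. Over all 15347 genes tested at GV, 37.6% were called, 21.2% higher and 16.5% lower in cKO, with a median log2 fold change of 0.001. Of 16675 genes tested at MII, 23.7% passed, 13.9% upward and 9.78% downward, and the median was 0.129. Scaling by library totals moved the GV median to 0.102 and the GV split from 3247 higher of 5774 called to 3931 of 5926. At GV the calls rested on female V1131: without its oocytes 103 of 16326 genes were called.

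The list of ITS2 processing factors (LAS1L-NOL9 complex, exonucleases, exosome and cofactors) had 12 of 25 genes called at GV, 6 higher and 6 lower, with a median log2 fold change of 0.05. At MII 6 of 25 were called, 3 higher and 3 lower, with a median of 0.06. These shares are 48% and 24%, against 37.6% and 23.7% of all genes. Without V1131, 1 gene was called at GV, Exosc10 itself, and the same held with counts summed per female. The GV log2 fold changes also moved without V1131: of 20 named genes, 13 were smaller by more than 1.5 times, such as Ubtf (1.12 in place of 2.3), Taf1c (1.62 for 3.35), Gnl2 (-0.82 for -1.55), Nop2 (0.81 for 1.77), Nop53 (0.34 for 0.99) and Las1l (-0.17 for -0.52). All 20 kept their sign. Of the genes named below, Gnl2, Nop53, Rrn3, Rrp1, Taf1a and Taf1b also missed the threshold at GV without either control female, Isg20l2 without V1132, and Mak16, Mtrex and Nop2 without V1133. Exosc10, the deleted gene, stood at -5.25 (SE 0.38, edgeR adjusted p = 2.41e-07) on the log2 scale at GV and -5.66 (SE 0.54, adjusted p = 9.93e-05) at MII.

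Las1l, the ITS2 endonuclease, had 42.4 to 93.1 CPM in GV cKO and 71.6 to 94.4 CPM in GV controls, and its log2 fold change was -0.52 (SE 0.17, edgeR adjusted p = 0.0214). At MII Las1l was at -0.02 (SE 0.22, adjusted p = 0.963), a direction that turned under library totals (0.06). Nol9, its partner kinase, had 68.6 to 100.5 CPM against 70.3 to 82.8 CPM at GV, and its log2 fold change was 0.25 (SE 0.1, edgeR adjusted p = 0.0478), a call lost with no filter on low counts (adjusted p = 0.112). At GV both genes missed the threshold without V1132 (adjusted p = 0.162 for Las1l and 0.18 for Nol9) and without V1133 (0.0938 and 0.211). At MII Nol9 had 120.8 to 232.6 CPM in cKO eggs and 52 to 81.2 CPM in controls, with no overlap, and its log2 fold change was 1.22 (SE 0.27, adjusted p = 0.00756).

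Of the exosome side, Mtrex, the helicase that feeds the nuclear exosome, was lower at both stages, with log2 fold changes of -1.01 (SE 0.22, edgeR adjusted p = 0.0034) at GV and -1.21 (SE 0.33, adjusted p = 0.0187) at MII. Mtrex missed the threshold at MII without control egg V1145_4 (-1.04, adjusted p = 0.0886). Exosc8, a ring subunit, was called lower at GV (-0.62, SE 0.12, adjusted p = 0.00143) and was not called at MII (-0.68, SE 0.32, edgeR adjusted p = 0.138). Exosc6, also a ring subunit, was higher at GV (1.78, SE 0.27) and at MII (3.09, SE 0.9, adjusted p = 0.0254), from low levels of 1.71 to 3.37 CPM and 0.257 to 1 CPM in the controls. Exosc6 missed the threshold at MII without either cKO female or without any of 4 single eggs (adjusted p of up to 0.129). Nop53, an adaptor that brings the exosome to the pre-large subunit, was called higher at GV (0.99, SE 0.27, adjusted p = 0.0102). At MII Nop53 was not called (0.44, SE 0.64, edgeR adjusted p = 0.672).

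Isg20l2, an exonuclease that trims the end of 5.8S, was called higher at GV (3.04, SE 0.73, edgeR adjusted p = 0.00548), where it had 0.444 to 12.6 CPM in cKO and 0 to 2.56 CPM in controls. At MII each control had at most 3 counts of Isg20l2, so no fold is given; the cKO eggs had 0.404 to 2.21 CPM. The levels of Isg20l2 were thus low and overlapped at GV.

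Large-subunit assembly factors had 12 of 21 tested genes called at GV (7 higher, 5 lower, median -0.05), or 57.1% against 37.6% of all genes. At MII 8 of 21 were called (6 higher, 2 lower, median 0.48), or 38.1% against 23.7%. Without V1131, 0 were called at GV. Mdn1, the AAA ATPase that removes factors from the pre-large subunit, had 2.28 to 109.7 CPM in GV cKO against 1.34 to 16.6 CPM in controls (log2 fold change 3.05, SE 0.57, edgeR adjusted p = 0.0013). At MII Mdn1 had 18.7 to 43.9 CPM against 2.12 to 4.12 CPM (3.21, SE 0.47, adjusted p = 0.000754), and there the groups did not overlap. Gnl2, a nucleolar GTPase of the pre-large subunit, was lower, with 21.7 to 186.3 CPM against 201.5 to 253.3 CPM at GV (-1.55, SE 0.41, adjusted p = 0.00857). In MII eggs Gnl2 had 13.4 to 22.8 CPM against 239.4 to 281.2 CPM (-3.75, SE 0.24, adjusted p = 1.44e-05), also with no overlap.

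The other assembly genes chosen by the same rule were called at GV: Rrp1 at -0.76 and Rpf1 at -0.59 were lower, and Nop2, an rRNA methyltransferase, at 1.77 and Mak16 at 2.42 were higher on the log2 scale. Of these only Mak16 was called at MII (5.06, edgeR adjusted p = 0.0118), from 0 to 0.448 CPM and at most 9 counts in the controls. Without 1 egg the Mak16 value ran from 4.51 to 6.63, and it missed the threshold without V1167 (edgeR adjusted p = 0.108). Gene totals of the RiboMinus files ran from 20678209 to 62675760 in MII cKO and from 16220993 to 20447150 in MII controls.

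RNA polymerase I genes and factors had 7 of 12 tested genes called at GV (4 higher, 3 lower, median 0.03), or 58.3% against 37.6% of all genes. At MII 4 of 12 were called (1 higher, 3 lower, median -0.21), or 33.3% against 23.7%. Without V1131, 0 were called at GV, and without either of the control eggs V1145_3 and V1145_4, 2 were called at MII. Ubtf, which binds the rRNA gene promoter, had 14.3 to 217.4 CPM in GV cKO and 10.4 to 44.3 CPM in GV controls (log2 fold change 2.3, SE 0.42, edgeR adjusted p = 0.00119). Its value at MII was 0.54 (SE 0.53, adjusted p = 0.5). Taf1c (3.35) and the subunit Polr1c (1.58) were also called higher at GV. Taf1b, of the same promoter selectivity factor as Taf1c, and Rrn3, which links the polymerase to that factor, were lower at both stages: Taf1b at -0.67 and -1.52, and Rrn3 at -0.4 (edgeR adjusted p = 0.0348) and -0.9 (adjusted p = 0.0275). The GV call of Rrn3 was lost with library totals (-0.31, edgeR adjusted p = 0.0691) and with no filter on low counts (adjusted p = 0.0593). Rrn3 missed the threshold at MII without V1167 or without any of 4 single eggs, with adjusted p up to 0.105. Taf1a was called lower at GV (-0.64). Taf1a, Taf1c and Polr1c were not called at MII.

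**Figure D5:**
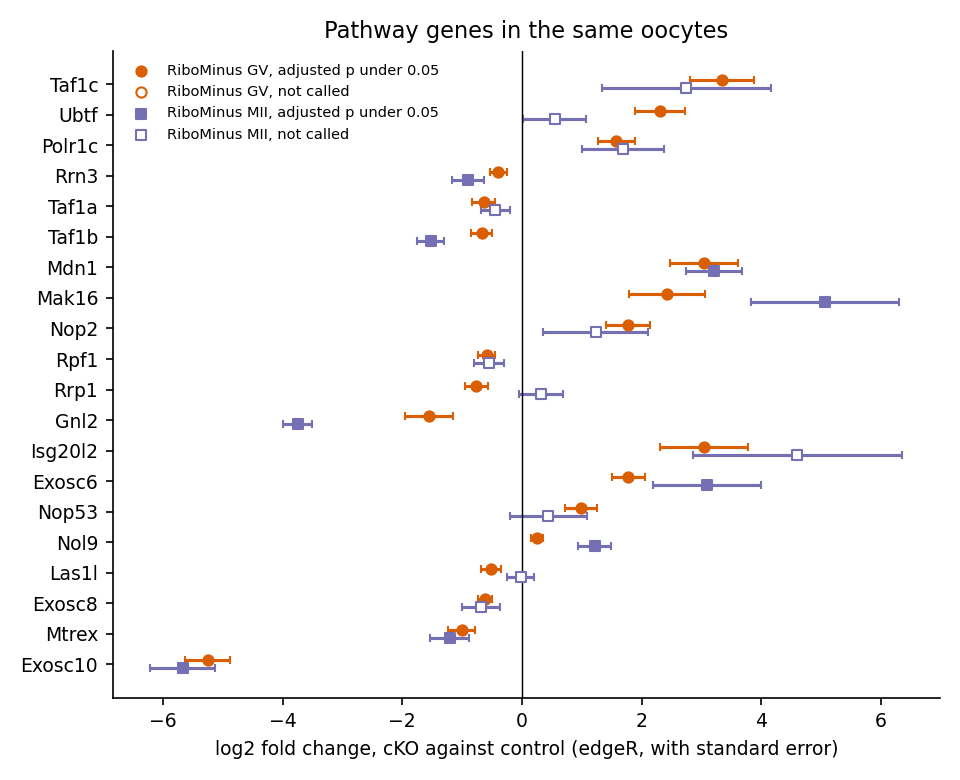
Log2 fold change of the named pathway genes, cKO against control, with standard error (horizontal axis), in RiboMinus libraries at GV (circles) and MII (squares); filled symbols had an adjusted p under 0.05 in edgeR. Exosc10 lies at -5.25 and -5.66, Gnl2 and Mdn1 lie on opposite sides at both stages, and the MII point of Isg20l2 rests on controls with at most 3 counts.

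Among 5221 genes with a mean log2 CPM of at least 5, those whose level most resembled the ITS2/5.8S ratio across the 22 oocytes were Gnb4 (Pearson r = 0.882), Sugt1 (0.867) and Bod1l (0.861). Those most opposed were Prr14l (-0.856), Wee2 (-0.843) and Elac2 (-0.826). In all, 25 genes had r above 0.8 and 8 below -0.8. After centring within groups the same 6 genes had r of 0.468, 0.253, -0.084, -0.285, -0.342 and -0.055, so the likeness lay mostly between groups.

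The files hold 1 total for ITS2, so reads next to 5.8S and reads from the rest of the spacer cannot be separated. Spike-in counts were not analysed here, and each value is relative to the ribosomal RNA of the same oocyte.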

How the data were processed

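Single oocytes had been sequenced as rRNA libraries (no ribosomal depletion) and RiboMinus libraries with the Ovation Solo system, per the labels' protocols. The deposited values are raw counts, 1 file per library: counts per segment of the ribosomal RNA precursor, and counts per Ensembl mouse gene. The submitters' processing notes name cutadapt 2.5, STAR 2.7.2a, SAMtools 1.9 and HTSeq 0.9.1 and the build mm10. How reads across a segment boundary were counted is not given in the sources used here; the files list 0 ambiguous reads, and the 28S and 3′ETS segments share 1 base. Segment names follow the order of start positions. Lines for reads outside features stayed out of totals and tests.

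From the counts, with 0.5 added, log2 ratios and shares were formed per oocyte and compared by exact two-sided permutation tests of mean differences, with the smaller tail doubled (numpy 2.4.6, scipy 1.17.1), with Benjamini-Hochberg adjustment over 45 tests. Standard errors are of the difference of group means. RiboMinus counts were tested over all genes with edgeR 4.0.16 (filterByExpr, TMM, quasi-likelihood) in R 4.3.3, within each stage. DESeq2 1.42.0, other scalings, filters and pseudocounts, female means and left-out females or eggs were alternatives. Both procedures were tested on simulated data. PolyA libraries were not used here.

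The segments and gene lists were chosen with earlier results of these data known. Named genes were Exosc10, Las1l and Nol9, and in each list the 3 largest called rises and falls at GV. Of 15 RNA polymerase I genes, 12 were matched by symbol; Polr1f, Polr1g and Polr1h were not, and Nop16 had too few counts to test.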

Additional observations from a re-analysis of the deposited data

Results flagged for a closer look

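In GV cKO oocytes, oocyte V1126_3 lay far from the other 6 in the ratio of ITS2 to ITS1. Its log2 ratio was 4.28, and the gap to the nearest oocyte was 0.724 of the range of the group. Its ITS2 and ITS1 counts were 496 and 25, and its Exosc10 level of 4.22 CPM, TMM-scaled over all 22 libraries, lay within the range of the other GV cKO oocytes. Of 27 groups examined in this way 1 had such an oocyte, and chance gives about 1 in 20 groups.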

How the results depend on the processing

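No paired analysis was possible because oocyte numbers restart within each female and no female has both genotypes or both stages. Across the alternatives every ITS2/5.8S, ITS2/28S and ITS2 share difference at MII, between stages in cKO and of the stage differences kept its sign. With the two-sided p by absolute size, chosen after seeing the data, ITS2/5.8S between stages in cKO (-2.21) passed the threshold (adjusted exact permutation p = 0.0341). Other differences turned, all uncalled, and the cause was not tested. With mean ranks these were ITS2/5.8S at GV (0.268), 28S/18S between stages in cKO (-1.57) and the 28S share there (-1.18). Without V1126 they were ITS2/5.8S at GV (0.19), 28S/18S (-0.0849) and 28S share (-0.0209) between stages in cKO. Without V1131 they were ITS2/28S (-0.16) and ITS2 share (-0.14) at GV and ITS2/ITS1 between stages in cKO (-0.83); the last was also -0.0356 with female means. Without V1132 the 5.8S share between control stages was -0.0892, and edgeR and DESeq2 gave -0.0015. Without V1133, 5.8S/28S turned in the difference of stage differences (-0.0329), and ITS2/28S (0.0586) and 5.8S/18S (0.0478) between control stages. Without V1166, 28S/18S was -0.32 between stages in cKO and -0.0178 in the difference of stage differences, and the 28S share was -0.0905. Without V1167, 5.8S/28S was -0.0189 at MII, -0.0202 between stages in cKO and -0.16 in the difference, and ITS2/ITS1 between stages in cKO was -0.14.

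Leaving out 1 oocyte gave 0.0878 for ITS2/5.8S at GV without V1126_3, -0.24 to 0.13 for 28S/18S and -0.0639 to 0.0372 for the 28S share between stages in cKO, and -0.0995 to 0.62 for ITS2/ITS1 there. It gave -0.0042 to 0.11 for the 5.8S share and -0.0964 to 0.0335 for ITS2/28S between control stages, -0.0244 to 0.19 for 5.8S/28S in the difference of stage differences, and -0.1031 to 0.0615 for Las1l at MII. Las1l at MII was 0.0594 with library totals and 0.0151 without V1166.

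Calls at GV depended on the females. ITS2 processing genes called went from 12 to 1 with counts summed per female, 1 without V1131, 5 without V1132 and 4 without V1133. Large-subunit assembly genes went from 12 to 0, 0 and, without V1133, 5. RNA polymerase I genes went from 7 to 0 and 0, to 4 without V1132 and to 3 without V1133. Over all genes edgeR called 5774 at GV, 3 with counts summed per female (4859 at an unadjusted p under 0.05), 103 without V1131, 2657 without V1132, 1407 without V1133 and 8586 without V1126. At MII it called 3949, and 2328 to 3707 without 1 egg. RNA polymerase I genes called at MII ranged from 2 to 4 without 1 egg. Depth limits ITS1 and 3′ETS, with 3 to 4 and 2 to 3 counts per MII control.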
